A study of Mus musculus with 14 samples.

Results

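The mitochondrial ribosomal protein genes were followed in cultured mouse epidermal cells from a control region and a distal region. Members were the rows of the deposited count table whose symbol is Mrpl or Mrps followed by a number and at most 1 letter, without pseudogenes. This gave 78 of 55228 symbols, and the rule uses the symbol alone. The cells carried an inducible Cre at the Lrig1 gene and a red fluorescent reporter (genotype Lrig1CreER/Rosa-TdTomato), so that cells descended from Lrig1-expressing cells of the upper hair follicle are marked. All were sorted for the surface antigen Sca1, came from the time that the labels call 8w pw1, had "none" as treatment, and were grown for 1 week in keratinocyte medium. The control group (8 libraries) came from a region outside the memory zone and the distal group (6 libraries) from the region that the labels call distal memory. The marked cells are those in which the Lrig1-driven Cre was active, and no age or sex of the animals is given in the labels. The library names place 6 and 2 control libraries, and 2 and 4 distal libraries, in 4 sets that are nested in the regions. Whether libraries are separate animals or cultures is not stated in the labels, and p-values reflect the spread among these libraries alone, possibly a technical one.

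Mitochondria keep a small genome whose messenger RNAs all encode core parts of the respiratory chain and the ATP synthase. These are translated inside the organelle by a ribosome of its own, the mitoribosome. Its RNA comes from the mitochondrial genome, but all its proteins are encoded in the nucleus, made in the cytosol and imported. Some have a counterpart in the bacterial ribosome and others occur only in mitochondria. The small subunit (Mrps genes) binds and decodes the messenger, and the large subunit (Mrpl genes) joins the amino acids and lets the chain leave through an exit tunnel at the inner membrane. Historical names hide a few exceptions: Mrps18a and Mrps30 belong to the large subunit, and Mrps36 encodes a component of the 2-oxoglutarate dehydrogenase complex.

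Total counts per library ran from 4515646 to 7458872 in the control group and from 2137934 to 4513518 in the distal group. The groups did not overlap in depth (two-sided exact permutation test over libraries, p = 0.000333, the smallest that these group sizes allow). Every library held counts for 77 of the 78 members. The exception was Mrpl53, at 0 counts in all 14 libraries. By sampling error alone, this allows up to 3 counts, or 0.447 to 1.21 CPM, in a library (CPM is a gene's count scaled to a common library size). In the annotation, 88% of the exon bases of Mrpl53 are shared with the same-strand gene Gm42688, which had 20 counts in total. How reads in shared bases were counted is not given, so the level of Mrpl53 could lie above that limit. Of 10 keratinocyte markers, 9 had counts in every library and the exception, Krt15, was at 0 in 1. Their summed level was 15960 to 24557 CPM in control and 20934 to 29451 CPM in distal libraries. Of the 9 tested, 4 rose (Krt5, Krt14, Itgb4 and Col17a1) and 3 fell (Trp63, Itga6 and Perp). The 5 markers of the upper follicle and the sort summed to 6064 to 8067 CPM in control and 4349 to 6699 CPM in distal libraries. Among them Ly6a, the gene of Sca1, fell by 0.44 on the log2 scale (edgeR adjusted p = 0.0484) and Cd44 by 0.47, while Lrig1 rose by 0.85 (adjusted p = 0.00046) and Plet1 by 0.46. The part of these marker differences in the results below was not tested. Fibroblast markers summed to 0.535 to 241 CPM and 2.30 to 88.7 CPM, with Lum at 0 throughout. Immune, melanocyte and endothelial markers each summed to less than 10 CPM in every library, and Cd3e, Cd207, Dct, Cdh5 and Vwf were at 0 throughout.

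More mitoribosomal genes were higher than lower in distal cells. Of the 77 tested members, 36 rose, 11 fell and 30 did not pass the threshold, an adjusted p under 0.05 in edgeR's quasi-likelihood test over 11757 genes. Over all tested genes 48.3% were called, 24.3% higher and 24.1% lower, against 46.8% and 14.3% of the members. The median log2 fold change, distal minus control (log2FC), was 0.39 over the members and -0.16 over all tested genes, and single members ran from -1.58 to 1.81. With upper-quartile scaling both medians moved up, to 0.56 and 0.00. Then 40 members rose and 7 fell, against 3255 and 2202 of the 11757 tested genes. Member transcripts took 0.417% ± 0.0473 (SD, n = 8) of control counts and 0.522% ± 0.0454 (SD, n = 6) of distal counts. Their summed level, on the scaled CPM that the fold changes use, was 3813 to 5380 CPM in control and 4640 to 5017 CPM in distal libraries, so these ranges overlapped. In bulk RNA a change in the number of cells of a type and a change in RNA per cell cannot be told apart.

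**Figure D1:**
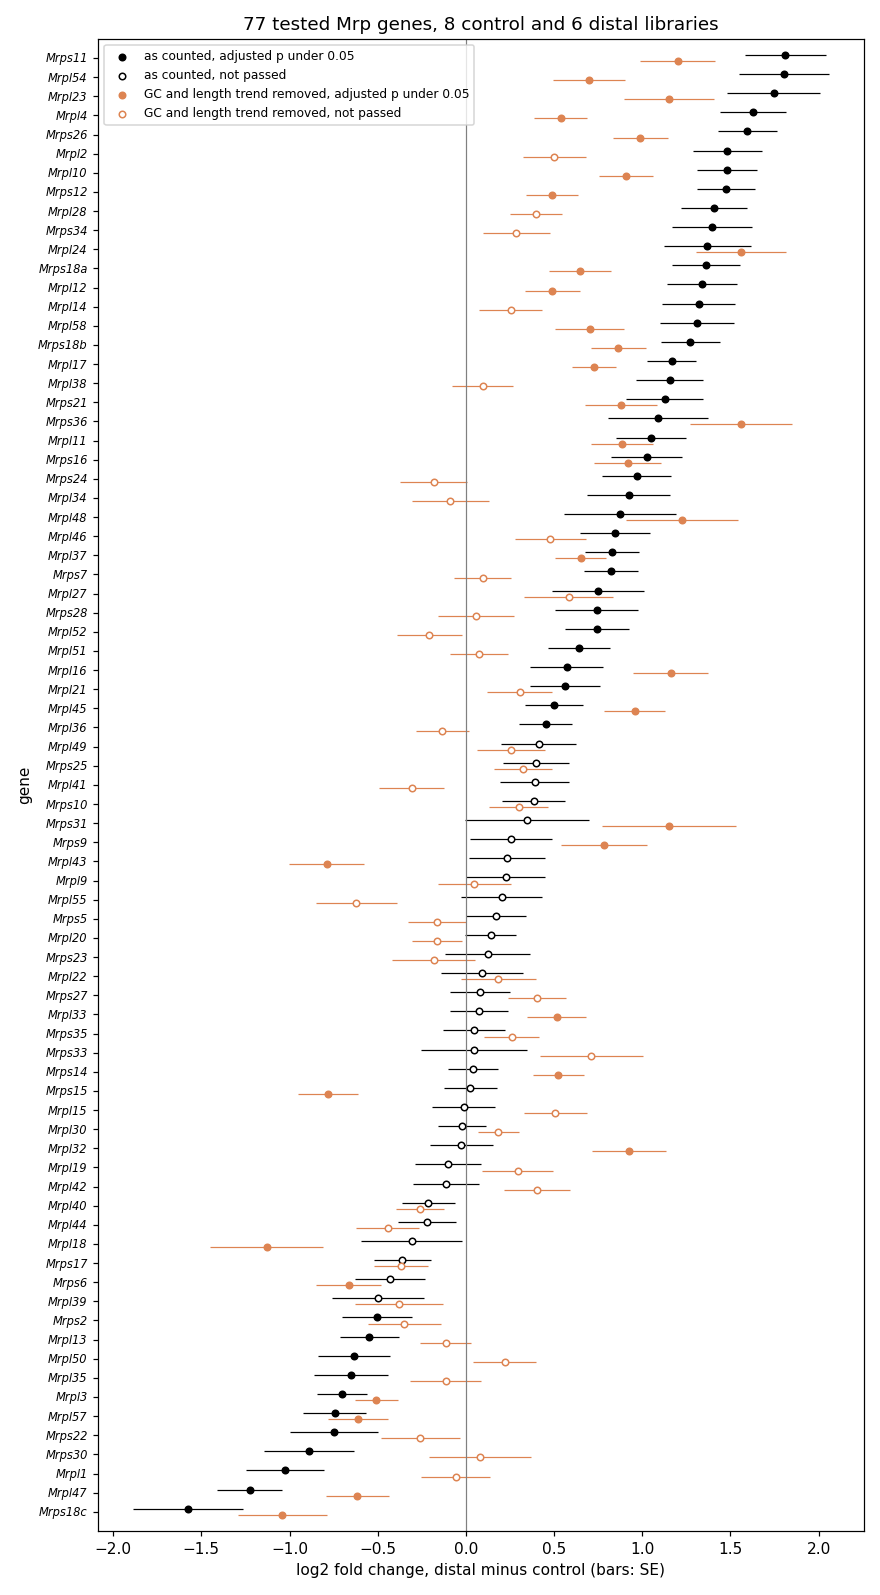
Log2 fold change, distal minus control, of the 77 tested members from 8 control and 6 distal libraries; points are edgeR estimates as counted (black) and with the trend on GC content and length removed (orange), filled where the adjusted p is under 0.05, and bars are standard errors. As counted, values run from -1.58 for Mrps18c to 1.81 for Mrps11, with 36 members past the threshold above 0 and 11 below it.

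In 25 members all distal libraries lay above all control libraries, and in 3 (Mrpl47, Mrps18c and Mrpl3) all distal libraries lay below. Among all tested genes those shares were 12.7% and 5.65%. A further comparison that bears on every count here is that of GC content. In control libraries a gene's level relative to its mean over all 14 libraries fell with the GC content of its transcripts, by 0.46 ± 0.10 (SD, n = 8) log2 units per 10 percentage points. In distal libraries it rose, by 0.62 ± 0.29 (SD, n = 6) log2 units per 10 percentage points. Because that mean spans both groups, the opposite signs follow from it. Only the difference between the groups is a result, and neither slope describes a group by itself. The fit was therefore repeated with each library's trend on GC content and transcript length removed, and both values are given for the genes named below. After removal 26 members rose, 8 fell and 43 did not pass, against 19% of all tested genes called, 10.4% higher and 8.59% lower. The members' median log2FC was then 0.29 and that of all genes 0.03.

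The genes of the S18 family moved in opposite directions. Vertebrate mitochondria have several proteins related to the bacterial ribosomal protein S18: the Mrps18c and Mrps18b proteins sit in the small subunit and the Mrps18a protein in the large one. The start regions of these genes, and of Mrps11, the member with the largest rise, are shown because these are the members on which the comparison turns. Each sequence covers 250 bases before and the first 30 bases after the start in RefSeq (GRCm38.p6). Capitals mark matches on either strand to a motif of the ETS family (CCGGAAGT), NRF1 (GCGCNTGCG), YY1 (AAGATGGCG) or the E-box (CACGTG), sites known from promoters of nuclear genes for mitochondria and of growth genes.
Mrps18a (chr17:46110754-46111033, + strand): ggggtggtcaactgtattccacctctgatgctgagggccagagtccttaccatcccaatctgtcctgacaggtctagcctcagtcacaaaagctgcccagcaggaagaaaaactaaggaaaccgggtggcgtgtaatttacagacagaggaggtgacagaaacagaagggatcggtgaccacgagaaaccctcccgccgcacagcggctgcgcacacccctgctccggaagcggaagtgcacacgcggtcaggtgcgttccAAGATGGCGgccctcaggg
Mrps18b (chr17:35916411-35916690, - strand): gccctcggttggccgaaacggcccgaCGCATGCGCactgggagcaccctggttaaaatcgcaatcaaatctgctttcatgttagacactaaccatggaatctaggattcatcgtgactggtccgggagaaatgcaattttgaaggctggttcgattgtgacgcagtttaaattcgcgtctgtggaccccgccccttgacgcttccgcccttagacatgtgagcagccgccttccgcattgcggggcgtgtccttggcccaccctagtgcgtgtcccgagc
Mrps18c (chr5:100798509-100798788, + strand): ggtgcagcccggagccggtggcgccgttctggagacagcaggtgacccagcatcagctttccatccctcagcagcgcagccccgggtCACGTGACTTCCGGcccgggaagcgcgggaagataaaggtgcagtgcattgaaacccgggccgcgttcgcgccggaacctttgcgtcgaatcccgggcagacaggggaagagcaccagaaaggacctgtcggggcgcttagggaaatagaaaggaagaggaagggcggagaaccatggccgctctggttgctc
Mrps11 (chr7:78782881-78783160, + strand): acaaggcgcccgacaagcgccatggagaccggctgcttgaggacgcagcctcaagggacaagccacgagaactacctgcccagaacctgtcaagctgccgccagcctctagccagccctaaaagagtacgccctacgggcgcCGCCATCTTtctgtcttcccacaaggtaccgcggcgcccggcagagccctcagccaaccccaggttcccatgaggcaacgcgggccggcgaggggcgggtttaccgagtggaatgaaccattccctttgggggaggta
Counted from the RefSeq start, the Mrps18a window has a YY1 match at position 12. Gene positions and distances between starts given elsewhere come from GENCODE, whose starts differ from these. The Mrps18b window lies wholly outside the GENCODE gene. The Mrps18c window has an E-box at -163 directly followed by an ETS match at -157 on the opposite strand, and the Mrps11 window has a YY1 match on the opposite strand at -108. In the Mrps18b window an NRF1 match lies at -224 on the opposite strand.

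Mrps18a (chromosome 17, 46110986 to 46128910, GRCm38) had a lowest, median and highest level of 12.2, 18.3 and 27.5 CPM in control libraries and 39.4, 45.7 and 54.5 CPM in distal libraries. Its log2FC was 1.36 ± 0.19 (SE; edgeR adjusted p = 2.72e-05), and 0.65 (adjusted p = 0.0153) with the trend removed. Mrps18b (chromosome 17, 35910379 to 35916389) ran from 16.3 to 24.1 CPM, median 21.4, in control and from 40.6 to 70.6 CPM, median 49.7, in distal libraries. It rose by 1.27 ± 0.17 (SE) on the log2 scale (edgeR adjusted p = 1.27e-05), and by 0.86 (adjusted p = 0.000961) with the trend removed. In both genes every distal library was above every control library, before and after the removal.

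Mrps18c (chromosome 5, 100798627 to 100804471) was the opposite case. Control libraries had 190 to 351 CPM, median 277, and distal libraries 29.9 to 185 CPM, median 78.4, so that every distal library was below every control library. The log2FC was -1.58 ± 0.31 (SE; edgeR adjusted p = 0.000515), the largest fall of any tested member. With the trend removed it was -1.04 (adjusted p = 0.00734), and the libraries overlapped, 157 to 279 CPM against 46.3 to 204 CPM. The distal libraries were widely spread, with a coefficient of variation of 63.6%, the highest of any tested member. Distal replicates 3 and 4 were the highest, at 138 and 185 CPM, and they also had the largest totals (4513518 and 4381280) and the weakest GC slopes (0.22 and 0.34) of the group. Distal replicate 6, the lowest at 29.9 CPM, had the smallest total (2137934) and a GC slope of 0.90. The part of depth and of the GC trend in this spread was not tested. With only libraries over 4000000 counts (8 control, 2 distal) the log2FC was -0.76 (adjusted p = 0.052), and without control set 1 it was -1.55 (adjusted p = 0.0508). Exon bases shared with other annotated genes make up 23.2% of Mrps18c and 30.5% of Mrps18b, and the sources used here do not give how shared reads were counted.

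**Figure D2:**
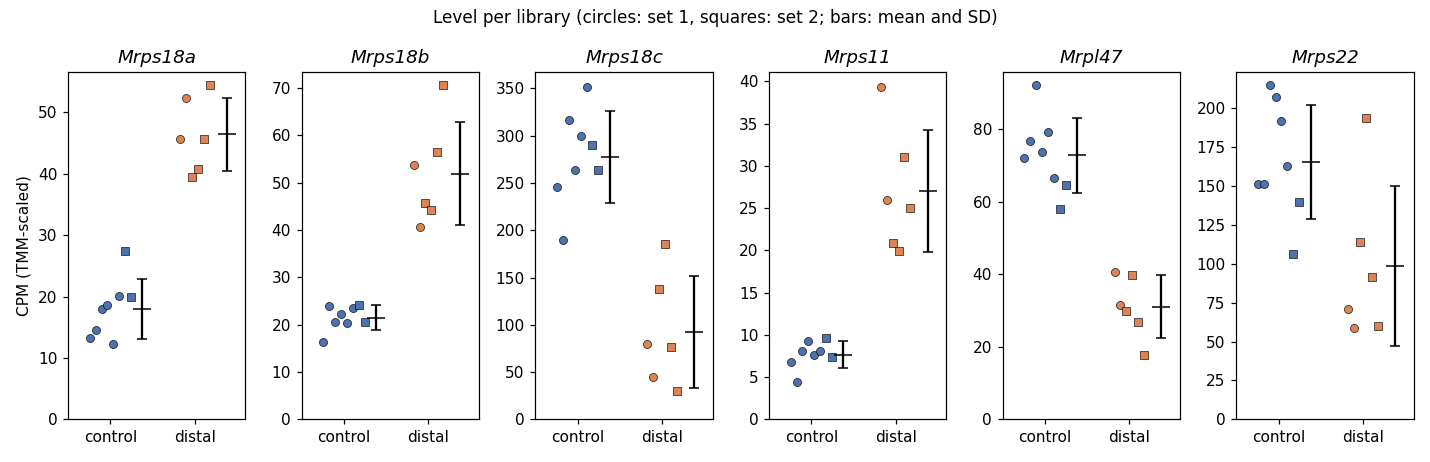
CPM of Mrps18a, Mrps18b, Mrps18c, Mrps11, Mrpl47 and Mrps22 in each of the 8 control and 6 distal libraries, by set; horizontal bars are group means. Mrps18a, Mrps18b and Mrps11 lie higher in all distal libraries, Mrps18c and Mrpl47 lower, and in Mrps22 the groups overlap, with distal replicate 4 at 194 CPM.

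Among the other small subunit genes rises were more frequent than falls. In the whole subunit 10 of 26 tested genes rose and 3 fell, against 24.3% and 24.1% of all tested genes. The subunit's median log2FC was 0.30, and with the trend removed 9 of its genes rose and 3 fell, against 10.4% and 8.59%. Of the 16 with a bacterial counterpart 7 rose and 2 fell, and of the 10 that occur only in mitochondria 3 rose and 1 fell. Mrps18b, though related to bacterial S18, was counted in the mitochondria-only group. Mrps11 (chromosome 7, 78783119 to 78792989), whose bacterial counterpart S11 lies on the platform of the subunit, ran from 4.47 to 9.63 CPM, median 7.80, in control libraries and from 19.97 to 39.4 CPM, median 25.5, in distal libraries. Its rise was the largest of all members, 1.81 ± 0.23 (SE) on the log2 scale (edgeR adjusted p = 9.44e-06), and 1.20 (adjusted p = 0.000786) with the trend removed. Every distal library had more than 2 times the level of any control library. Mrps12 (chromosome 7, 28739641 to 28741820), counterpart of S12 of the decoding centre, ran from 21.2 to 39.5 CPM, median 27.5, and from 64.7 to 100.1 CPM, median 79.0. The 2 groups were again apart, with a log2FC of 1.47 ± 0.16 (SE; edgeR adjusted p = 3.55e-06), and 0.49 (adjusted p = 0.027) with the trend removed.

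Mrps26 (chromosome 2, 130563742 to 130568695), a small subunit protein without bacterial counterpart, had the smallest p of all members. It ran from 19.3 to 32.1 CPM, median 24.3, in control and from 55.4 to 85.5 CPM, median 75.2, in distal libraries. The log2FC was 1.595 ± 0.17 (SE; edgeR adjusted p = 2.25e-06), and 0.99 (adjusted p = 0.000322) with the trend removed, with no overlap either way. Mrps16, the counterpart of S16 and with 12.7 CPM per kilobase of transcript among the lowest members, rose by 1.02 (edgeR adjusted p = 0.000462), and by 0.92 (adjusted p = 0.00254) with the trend removed. With only libraries over 4000000 counts it stood at 0.72 (edgeR adjusted p = 0.125).
Other small subunit genes depended on the trend. Mrps24, the counterpart of S3 at the messenger entry, ran from 21.2 to 34.7 CPM in control and from 36.0 to 85.6 CPM in distal libraries and rose by 0.97 (edgeR adjusted p = 0.000644), but stood at -0.18 (adjusted p = 0.559) with the trend removed. Mrps15 had a log2FC of 0.03 (edgeR adjusted p = 0.899), and fell by 0.78 (adjusted p = 0.0036) with the trend removed. Mrps6 stood at -0.43 (adjusted p = 0.0796; -0.50 and 0.0381 without control replicate 4) and fell by 0.67 (adjusted p = 0.0172) with the trend removed. Mrps31 stood at 0.34 (edgeR adjusted p = 0.428) and rose by 1.15 (adjusted p = 0.0404) with the trend removed.

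In the large subunit 25 of 50 tested genes rose and 8 fell, against 24.3% and 24.1% of all tested genes. The subunit's median log2FC was 0.43. After the removal 16 of its genes were higher and 5 lower, against 10.4% and 8.59%. Of the 30 genes with a bacterial counterpart 15 rose and 5 fell, and of the 20 tested genes found only in mitochondria 10 rose and 3 fell. The mitochondria-only group here includes Mrps18a, which is related to bacterial S18. The large subunit has a stalk that recruits the translation factors (Mrpl10, Mrpl11 and Mrpl12) and, on the opposite side, a stalk where the used tRNA leaves (Mrpl1). Mrpl10 (chromosome 11, 97041560 to 97049213), the stalk base, ran from 15.8 to 23.4 CPM, median 19.5, in control and from 44.3 to 79.5 CPM, median 50.7, in distal libraries. It rose by 1.48 ± 0.17 (SE) on the log2 scale (edgeR adjusted p = 4.72e-06), and by 0.91 (adjusted p = 0.000583) with the trend removed. Mrpl12 (chromosome 11, 120484613 to 120489065), the stalk protein bound to Mrpl10, ran from 41.7 to 88.0 CPM, median 57.1, and from 106 to 182 CPM, median 168. For both genes the groups were apart. The log2FC of Mrpl12 was 1.34 ± 0.20 (SE; edgeR adjusted p = 3.68e-05), and 0.49 (adjusted p = 0.0361) with the trend removed.
Mrpl11 rose by 1.05 (edgeR adjusted p = 0.000324; 0.88 with the trend removed, adjusted p = 0.00193). Mrpl1 (chromosome 5, 96209493 to 96266727), of the opposite stalk, differed from these. It ran from 80.5 to 146 CPM, median 113, in control and from 32.7 to 82.9 CPM, median 57.7, in distal libraries, with distal replicate 3 just above the lowest control library. It fell by 1.03 ± 0.22 (SE) on the log2 scale (edgeR adjusted p = 0.000987), but stood at -0.06 (adjusted p = 0.876) with the trend removed. The GC content of its transcripts, 41.4%, was among the lowest of the members.

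Around the exit tunnel 4 of 8 genes rose and 1 fell, also with the trend removed. The shares over all tested genes were 24.3% and 24.1% as counted, and 10.4% and 8.59% with the trend removed. Mrpl17 (chromosome 7, 105803206 to 105811099) ran from 37.9 to 56.1 CPM, median 51.6, in control and from 89.1 to 137 CPM, median 111, in distal libraries. It rose by 1.17 ± 0.14 (SE) on the log2 scale (edgeR adjusted p = 5.36e-06), and by 0.73 (adjusted p = 0.00067) with the trend removed, without overlap. Mrpl23 (chromosome 7, 142532686 to 142540747), the counterpart of L23 at the tunnel's mouth, was low, at 3.28 to 5.99 CPM, median 4.59, in control and 10.8 to 19.0 CPM, median 16.2, in distal libraries. It rose by 1.74 ± 0.27 (SE) on the log2 scale (edgeR adjusted p = 4.91e-05). After the removal it rose by 1.15 (adjusted p = 0.00385).
Mrpl24, the counterpart of L24 at the same site, ran from 7.40 to 20.8 CPM in control and from 23.1 to 31.2 CPM in distal libraries. Its log2FC of 1.37 (edgeR adjusted p = 0.000236) was 1.56 (adjusted p = 0.000418) with the trend removed, and 0.83 (adjusted p = 0.0842) without control set 1. The gene that fell was Mrpl47 (chromosome 3, 32725397 to 32737605), the counterpart of L29. It ran from 58.2 to 92.2 CPM, median 73.0, in control and from 17.8 to 40.8 CPM, median 30.7, in distal libraries, so the groups did not overlap. The log2FC was -1.22 ± 0.18 (SE; edgeR adjusted p = 4.34e-05), and -0.62 (adjusted p = 0.0207) with the trend removed. Mrpl47 shares 24.2% of its exon bases with other genes, among them Actl6a and Ndufb5 on the opposite strand, at 36.5 and 236 CPM in control and 59.7 and 157 CPM in distal cells.

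In the central protuberance of the large subunit 4 of 7 genes rose and none fell, against 24.3% and 24.1% of all tested genes. Once the trend was removed 1 rose and 1 fell, against 10.4% and 8.59% of all genes. Mrpl38 ran from 10.8 to 18.6 CPM in control and from 26.0 to 38.7 CPM in distal libraries and rose by 1.16 (edgeR adjusted p = 9.98e-05), but stood at 0.10 (adjusted p = 0.753) with the trend removed. Mrpl46 rose by 0.85 (edgeR adjusted p = 0.00206), and stood at 0.48 (adjusted p = 0.107) with the trend removed. Mrpl48 rose by 0.87 (edgeR adjusted p = 0.0301), and by 1.22 (adjusted p = 0.0114) with the trend removed. Without distal set 1 it stood at 0.61 (adjusted p = 0.203), and without control replicates 3 or 5 or distal replicate 1 the adjusted p was 0.0519, 0.051 and 0.0624. Mrpl18, a counterpart of L18, which contacts the 5S RNA in bacteria, was the most abundant member per transcript length. It ran from 187 to 386 CPM, median 302, in control and from 102 to 400 CPM, median 180, in distal libraries. Distal replicates 3 and 4 were at 387 and 400 CPM and the 4 other distal libraries at or under 201 CPM, the same division as for Mrps18c. As counted it did not pass (log2FC -0.31, edgeR adjusted p = 0.382), and with the trend removed it fell by 1.13 (adjusted p = 0.0187).

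Elsewhere in the large subunit Mrpl54, Mrpl4 and Mrpl2 had rises among the 8 largest. Mrpl54 (chromosome 10, 81264713 to 81266934), a mitochondria-only protein, ran from 8.73 to 27.3 CPM, median 14.6, in control and from 40.4 to 75.6 CPM, median 53.2, in distal libraries. It rose by 1.80 ± 0.25 (SE) on the log2 scale (edgeR adjusted p = 2.41e-05), and by 0.70 (adjusted p = 0.0222) with the trend removed. At 60.8% its transcripts had the highest GC content of all members. Mrpl4 (chromosome 9, 21002738 to 21008839), the counterpart of L4, ran from 16.0 to 36.8 CPM, median 27.5, and from 64.4 to 99.1 CPM, median 81.6. It rose by 1.63 ± 0.19 (SE) on the log2 scale (edgeR adjusted p = 4.11e-06), and by 0.54 (adjusted p = 0.0179) with the trend removed. Mrpl2 (chromosome 17, 46646229 to 46650139), the counterpart of L2 near the peptidyl transferase centre, ran from 12.3 to 23.2 CPM, median 19.1, and from 38.5 to 81.0 CPM, median 52.0. In each of these genes the distal libraries stood above all control libraries. Mrpl2 rose by 1.48 ± 0.19 (SE; edgeR adjusted p = 1.24e-05), and stood at 0.50 (adjusted p = 0.0564) with the trend removed.
Mrpl16, the counterpart of L16, rose by 0.57 (edgeR adjusted p = 0.0287), and by 1.16 (adjusted p = 0.00114) with the trend removed. Without control replicates 1 or 4 the first value was 0.51 or 0.50 (adjusted p = 0.0503 and 0.0508). Mrpl43 stood at 0.23 (edgeR adjusted p = 0.377; 0.51 and 0.0393 without distal replicate 4) and fell by 0.79 (adjusted p = 0.0138) with the trend removed. It shares 33.4% of its exon bases with other genes, among them Twnk, the mitochondrial helicase, on the opposite strand.

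Of the members that fell as counted, 4 of 11 also fell with the trend removed: Mrps18c, Mrpl47, Mrpl57 and Mrpl3. Mrpl3 (chromosome 9, 105053239 to 105079888), the counterpart of L3, ran from 91.9 to 166 CPM, median 134, in control and from 71.0 to 90.7 CPM, median 83.0, in distal libraries. The groups were apart by about 1 CPM, and the log2FC was -0.70 ± 0.14 (SE; edgeR adjusted p = 0.000566), and -0.51 (adjusted p = 0.00721) with the trend removed. The Mrpl3 call was lost without control set 1 (-0.45, adjusted p = 0.165) and with only libraries over 4000000 counts (-0.57, adjusted p = 0.116). Mrpl57 (chromosome 14, 57826234 to 57829296), a small mitochondria-only protein, ran from 82.2 to 207 CPM, median 150, and from 79.9 to 100.1 CPM, median 88.9. Control replicate 7, the lowest, lay within the distal range. The log2FC was -0.74 ± 0.18 (SE; edgeR adjusted p = 0.00235), -0.61 (adjusted p = 0.0155) with the trend removed, and -0.17 (adjusted p = 0.582) without control set 1.
Mrps30, Mrps22 and Mrpl35 fell as counted and did not pass after the removal. Without control set 1 they did not pass either, at -0.34, -0.29 and -0.0743 (edgeR adjusted p = 0.434, 0.622 and 0.824). Mrps30, of the large subunit, ran from 42.6 to 133 CPM and from 37.0 to 65.7 CPM, with a log2FC of -0.89 (edgeR adjusted p = 0.00824), and 0.08 (adjusted p = 0.881) with the trend removed. Mrps22, of the small subunit, ran from 106 to 215 CPM and from 58.9 to 194 CPM, at -0.75 (edgeR adjusted p = 0.0197), and -0.26 (adjusted p = 0.467) with the trend removed. The Mrps22 call was lost without distal replicates 1, 2 or 6 (adjusted p = 0.0599, 0.0637 and 0.0639). Mrpl35, the counterpart of L35, stood at -0.65 (edgeR adjusted p = 0.0166), and at -0.11 (adjusted p = 0.746) with the trend removed. Without control replicate 6, the highest at 257 CPM, it was -0.37 (adjusted p = 0.0898), and the call was also lost without any 1 of distal replicates 2 to 6 (adjusted p = 0.0537 to 0.0885).

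Mrps36, which is named as a ribosomal gene but encodes a subunit of a Krebs cycle enzyme complex, also rose. It ran from 3.98 to 8.37 CPM, median 5.86, in control and from 8.26 to 17.2 CPM, median 12.8, in distal libraries, an overlap of 1 library. Its log2FC of 1.09 ± 0.28 (SE; edgeR adjusted p = 0.00415) was 1.56 (adjusted p = 0.00115), the largest rise of all members, with the trend removed. The call as counted was lost without control set 1 (1.19, edgeR adjusted p = 0.0975). It was also lost with only libraries over 4000000 counts (8 control, 2 distal), at 0.70 (adjusted p = 0.332).

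**Figure D3:**
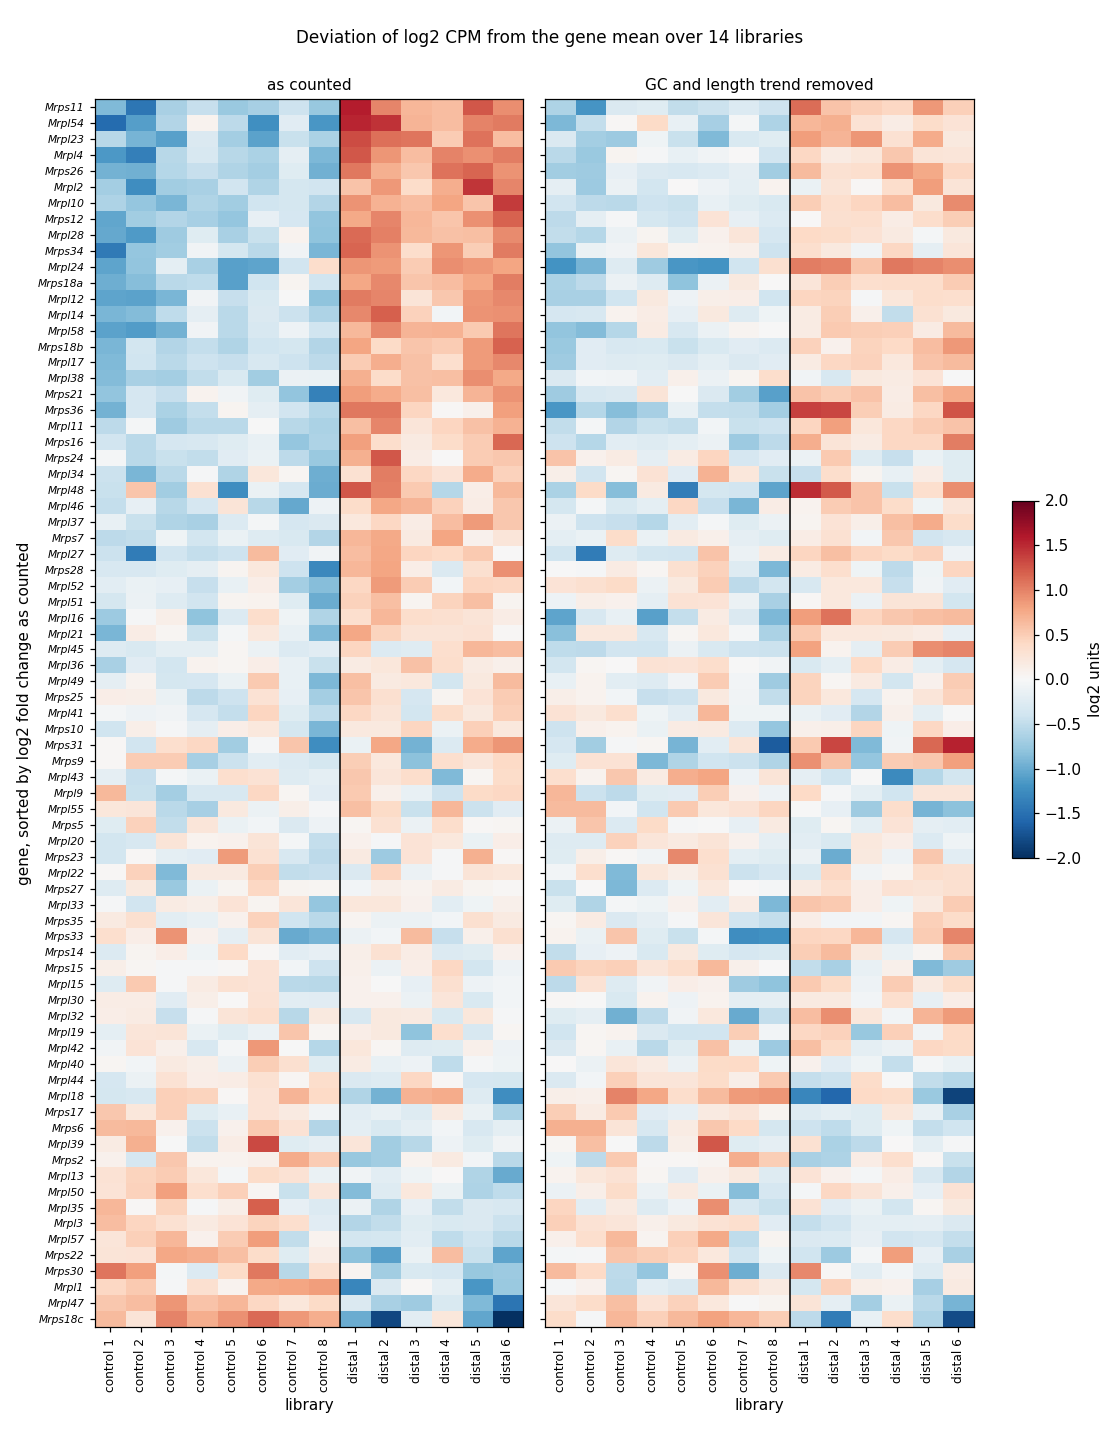
Deviation of log2 CPM from each gene's mean in the 14 libraries, for the 77 tested members sorted by log2FC, as counted (left) and with the trend on GC content and length removed (right); colours run from -2 to 2 log2 units. The vertical line divides control from distal libraries, and the members' median deviation is -0.18 and 0.27 in the 2 groups as counted and -0.11 and 0.19 with the trend removed.

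How far members moved went with the GC content of their transcripts, as for all genes. Across the 77 members Pearson's r between GC content and log2FC was 0.66 and Spearman's rho 0.67, and across 11704 genes they were 0.70 and 0.73. Genes share libraries and are not independent replicates, so these are descriptions. When all genes were divided by GC content into 5 groups of equal size, the group with the lowest GC content held 4 members, of which 3 fell and none rose, and 53.4% of its genes fell. The group with the highest GC content held 16 members, of which 12 rose and none fell, and 67.2% of its genes rose. Between them, in order of GC content, 4 of 18, 5 of 17 and 15 of 22 members rose, against 1.62%, 12.4% and 40.2% of all genes. The members' median GC content was 51.3% and that of all tested genes 49.6%.
Of the 36 members that rose, 21 still rose after the removal, among them Mrps11, Mrps26, Mrpl10, Mrpl17, Mrps18a and Mrps18b, and 15 no longer passed. Another 5 members rose only after the removal (Mrpl32, Mrpl33, Mrps14, Mrps31 and Mrps9) and 4 fell only then (Mrpl18, Mrpl43, Mrps15 and Mrps6). No member passed in opposite directions in the 2 fits. In 14 members all distal libraries still lay above all control libraries, against 4.31% of all genes, and in none did all distal libraries lie below, against 2.53%.

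**Figure D4:**
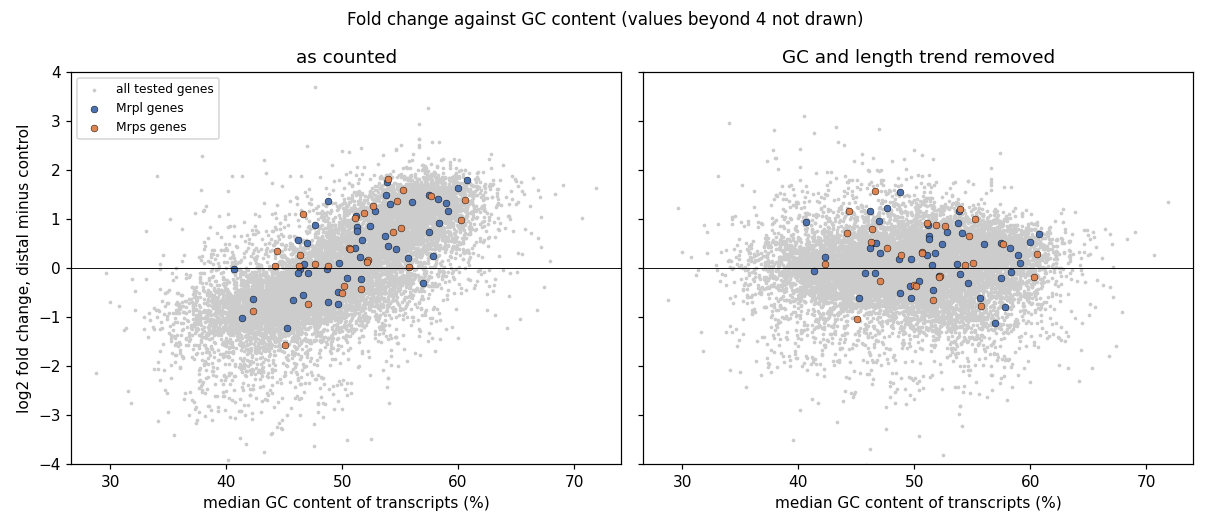
Log2 fold change, distal minus control, against GC content of the transcripts for all tested genes (grey) and the 77 tested members (coloured), as counted (left) and with the trend removed (right). As counted the members rise with GC content (r = 0.66), like all genes (r = 0.70).

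No member was called between the sets of a region. Of 11757 genes none was called between the 2 control sets or between the 2 distal sets by edgeR, and at an unadjusted p under 0.05 there were 10 and 4 members, and 969 and 921 genes. The smallest p between control sets belonged to Mrps33, at 17.5 CPM in set 1 and 6.998 CPM in set 2 (log2FC -1.32, edgeR adjusted p = 0.469), followed by Mrpl15 and Mrpl57 (-0.74 and -0.68). Between distal sets it was smallest for Mrps24, Mrps2 and Mrps22, at -0.69, 0.68 and 0.83 (edgeR adjusted p = 0.608, 0.608 and 0.617). Mrps2, which fell by 0.50 in distal cells (edgeR adjusted p = 0.0452), lost that call without any 1 of control replicates 3, 6, 7 and 8 or distal replicates 1, 2, 3, 5 and 6, with -0.33 (adjusted p = 0.145) without control replicate 7. Since sets are nested in regions, counts were also summed per set, which leaves 2 values a region. Then 33 members rose and 3 fell (Mrpl47, Mrpl1 and Mrps18c), against 30.5% of genes called, 18.8% higher and 11.7% lower. With sums per set and the trend removed, only Mrpl45 (log2FC 0.92) and Mrpl16 (1.30) passed, against 2.67% of all genes called, 1.06% higher.
Between libraries of a group the members' median coefficient of variation was 22.3% in control and 19.6% in distal libraries, against 27.0% and 28.2% over tested genes with a mean of at least 10 CPM.

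Per transcript length the levels of the members were far apart. Mrpl18, at 594.5 CPM per kilobase over all libraries, Mrps18c, at 433, and Mrpl20, at 241, were the highest. Mrps31, at 5.37 CPM per kilobase, was the lowest of those with counts, followed by Mrps16 at 12.7. Mrpl20, the counterpart of L20, was at 92 to 154 CPM in control and 117 to 154 CPM in distal libraries and did not pass (log2FC 0.14, edgeR adjusted p = 0.44).

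**Figure D5:**
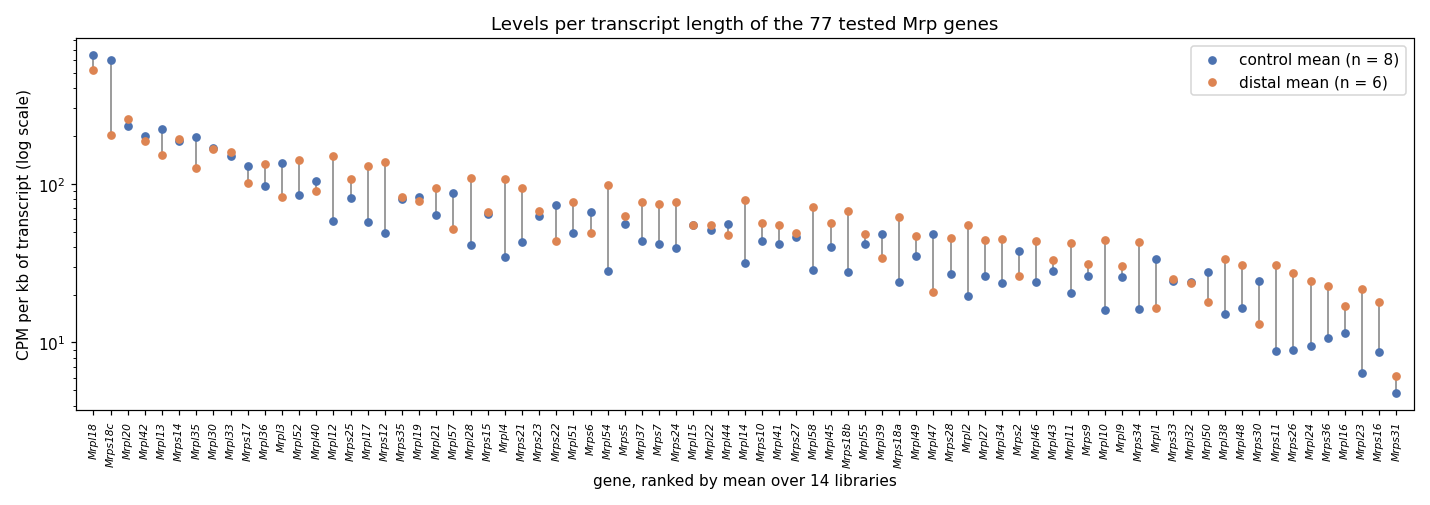
Mean CPM per kilobase of transcript (log scale) in control (n = 8) and distal (n = 6) libraries of the 77 tested members, ranked by the mean over 14 libraries; grey lines join the 2 groups. Levels run from 594.5 for Mrpl18 down to 5.37 for Mrps31, and Mrps18c is the member whose control point stands farthest above its distal point.

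The members lie on 17 chromosomes, with 11 on chromosome 11 and 8 on chromosome 17. By the starts in GENCODE, a coding gene starts in the opposite direction within 1000 bases of 23 members, overlaps of up to 200 bases included. The pairs named here were picked after their values were seen. Mrps12 and Sars2, the mitochondrial seryl-tRNA synthetase, start 172 bases apart and rose by 1.47 and 1.61 on the log2 scale. Mrpl54 and Apba3 start 26 bases apart and rose by 1.80 and 1.65. After the removal Sars2 and Apba3 stood at 0.57 and 0.51. In other pairs the values differed: Mrps18c fell by 1.58 while Helq, 29 bases away, stood at 0.55 (edgeR adjusted p = 0.348), and Mrpl49 stood at 0.41 (adjusted p = 0.119) while Fau, 59 bases away, rose by 1.501. Mrps11 and Mrpl46 are neighbours that overlap at their starts on opposite strands, and both rose. Exon bases shared with another gene were found in 33 members and exceeded 20% in 10, among them Mrps34 (77.8%) and Mrps25 (69.8%), so their counts are uncertain.

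Promoter windows of 300 bases (250 before and 50 after the start) were found in RefSeq for 69 members, with 75 windows in all. The ETS letters occurred in 12 windows (16.0%, against 3.89% of 32851 windows of all genes), the NRF1 letters in 18 (24.0%, against 6.31%), the YY1 letters in 8 (10.7%, against 1.4%) and the E-box in 7 (9.33%, against 7.15%). Overlapping matches of different motifs were each counted. The members' windows had a median GC content of 58.7% and all windows 52.7%. The ETS letters were in 5 of 37 windows of members that rose, 3 of 10 of those that fell and 4 of 28 of the rest. The NRF1 letters were in 9, 1 and 8 of the same windows, the YY1 letters in 5, 1 and 2, and the E-box in 5, 1 and 1. Windows of 1 gene were counted separately. The 7 E-box windows belong to only 5 genes, because more than 1 window of Mrpl2, which rose, held it. The E-box counts are therefore not counts of genes. The NRF1 and YY1 motifs were shortened after a first search with longer forms, which can only add matches, so the excess over all windows is a description.

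The other genes of mitochondrial translation and RNA handling were counted in 4 lists. Over their 53 tested genes 30.2% rose and 24.5% fell, against 24.3% and 24.1% of all tested genes, and after the removal 9.43% rose and 1.89% fell, against 10.4% and 8.59%. Of 5 further mitoribosome proteins with other names 2 rose. Aurkaip1 rose from 30.3 to 81.9 CPM (log2FC 1.43, edgeR adjusted p = 2.16e-05), and stood at 0.45 (adjusted p = 0.0772) with the trend removed. Gadd45gip1 rose from 17.4 to 43.9 CPM (1.33, adjusted p = 1.07e-05; 0.75 and 0.00419 with the trend removed). Ptcd3 stood at -0.47 (edgeR adjusted p = 0.197), and at 0.27 (adjusted p = 0.475) with the trend removed.
Of 22 assembly factors 8 rose and 2 fell. Among them Mpv17l2 rose from 12.5 to 45.6 CPM (1.86; 0.75 with the trend removed, adjusted p = 0.0116). Rbfa, which matures the small subunit, rose by 1.39, and stood at 0.54 (edgeR adjusted p = 0.18) with the trend removed. Fastkd2, an RNA-binding protein, fell from 110 to 42.0 CPM (-1.38), and stood at -0.52 (edgeR adjusted p = 0.0998) with the trend removed. Of 13 translation factors 3 rose and 4 fell, close to the shares of all genes. The elongation factors Tsfm and Tufm rose by 1.36 and 1.18 while Guf1, the back-translocase, fell by 1.55. After the removal Tsfm rose by 0.69 (edgeR adjusted p = 0.00957), Tufm stood at 0.35 (adjusted p = 0.173) and Guf1 at -0.72 (adjusted p = 0.0984).
Of 13 genes of mitochondrial transcription and RNA handling 3 rose and 7 fell. The RNA polymerase Polrmt rose by 1.28, its elongation factor Tefm fell by 1.04 and the RNA-binding protein Slirp fell by 1.03. None of these 3 calls was kept after the removal, with Polrmt at 0.18, Tefm at -0.49 and Slirp at -0.40 (edgeR adjusted p = 0.534, 0.117 and 0.121). After the removal 1 of 5, 2 of 22, 2 of 13 and 0 of 13 genes of these lists rose, and 0, 0, 0 and 1 fell. The messenger RNAs of the mitochondrial genome, which the mitoribosome translates, took 3.80% to 7.13% of control counts and 1.96% to 5.48% of distal counts. Of their 12 tested genes 8 fell and none rose, against 24.1% and 24.3% of all tested genes. With the trend removed 2 fell and 1 rose, against 8.59% and 10.4%, and their median log2FC moved from -0.82 to 0.04. The GC content of the 12, 31.9% to 39.9%, placed all of them in the lowest of the 5 GC groups. In that group 53.4% of all genes fell and 0.342% rose. Of these messengers mt-Co3, of cytochrome oxidase, fell by 2.18 (edgeR adjusted p = 4.13e-05), with -1.41 (adjusted p = 0.00202) once the trend was removed. The low mt-Nd3, at 4.78 CPM in control and 8.11 CPM in distal libraries, stood at 0.76 (edgeR adjusted p = 0.0982). It rose by 1.87 (adjusted p = 0.00117) with the trend removed. The abundant mt-Nd1, mt-Nd5 and mt-Cytb stood at 0.35, 0.03 and 0.05 after the removal and did not pass.

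For comparison, the proteins of the cytosolic ribosome and of respiratory complex I, the latter built in part by the mitoribosome, were counted by symbol. Of 77 tested cytosolic ribosomal genes 53 rose and 7 fell, with a median log2FC of 0.96, and 49 rose and 7 fell with the trend removed (median 0.60). Of 36 complex I genes 20 rose and 10 fell (median 0.65), and 14 rose and 4 fell with the trend removed (median 0.30). Over all tested genes 24.3% rose and 24.1% fell as counted, and 10.4% and 8.59% with the trend removed. The complex I falls as counted, 27.8% of its genes, were near the share over all genes. The mitoribosomal median of 0.39, or 0.29 with the trend removed, was below these and above that of all genes, and the differences between the lists were not tested.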

How the data were processed

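Per the labels' protocols, sorted and cultured cells gave cDNA by Smart-Seq2, which was made into Nextera XT libraries. The authors deposited raw counts per gene symbol for 14 libraries (2137934 to 7458872 counts); the submitters' processing notes name HISAT2, featureCounts and mm10 or GRCm38. Strand and multi-mapping settings are not given in the sources used here, so overlapping genes are uncertain, and counting error is largest in the shallower distal libraries.

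The main test used edgeR 4.0.16 (R 4.3.3) with filterByExpr, which kept 11757 genes, TMM scaling, robust two-sided quasi-likelihood F tests and Benjamini-Hochberg adjustment over all tested genes, threshold 0.05. The SE was obtained from the size of the log2 fold change and the F statistic. CPM uses TMM-scaled totals. For the trend, each library's deviation of log2 CPM (prior count 2) was modelled by natural splines on GC content and on log2 transcript length, with 4 degrees of freedom for each, and used as an offset (11704 genes). Positions, GC content and length come from GENCODE for GRCm38, medians over transcripts. Sets of a region were compared in 1 model with 4 sets. DESeq2 1.42.0, limma 3.58.1, other scalings and filters, sums per set, thinned counts, a replicate block and left-out libraries were alternatives. The code was tested on simulated data.

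Members, lists and tests were chosen with earlier results of these data known, and the lists of cytosolic ribosomal and complex I genes after the counts were read. The named members, 38 in all, are the 8 largest rises and falls past the threshold, the 2 smallest p in each structural group, the 5 largest rises and falls with the trend removed, the 3 smallest p between sets of each region, the 3 highest and lowest per transcript length, Mrps18a, Mrps18b, Mrps18c and Mrps36. Of each list of other genes the 3 with the smallest p are named. Other genes were named after their values were seen.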

Additional observations from a re-analysis of the deposited data

Results flagged for a closer look

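Of 80 group values examined for the named members and library measures, 5 had 1 library that stood apart from the others of its group by Dixon's criterion; chance gives about 1 in 20. Mrpl10 was at 79.5 CPM in distal replicate 6, with the next highest library at 56.2 CPM. Mrpl16 was at 43.5 CPM in distal replicate 2, with the next at 35.1 CPM. Mrpl17 was at 37.9 CPM in control replicate 1, the lowest of its group, with the next at 48.0 CPM. Mrpl2 was at 12.3 CPM in control replicate 2, again the lowest, with the next at 18.2 CPM. Mrpl24 was at 23.1 CPM in distal replicate 3, the lowest, with the next at 28.3 CPM. For Mrpl10, Mrpl17, Mrpl2 and Mrpl24 the groups did not overlap with these libraries included. In Mrpl10, Mrpl17 and Mrpl2 the library lay on the side away from the other group, so it could not have made an overlap.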

How the results depend on the processing

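No member that passed as counted passed in the opposite direction under an alternative run. Mrpl43, which did not pass as counted, passed higher without distal replicate 4 (0.51, edgeR adjusted p = 0.0393) and lower with the trend removed (-0.79, adjusted p = 0.0138). As counted, 36 members were higher and 11 lower, with a median log2 fold change of 0.39. Leaving out 1 library at a time gave 35 to 40 higher, 6 to 13 lower and a median of 0.36 to 0.58, with the fewest lower without distal replicates 5 and 6 (7 and 6); over all genes it gave 2695 to 3207 higher and 2105 to 2724 lower. Upper-quartile scaling gave 40 higher, 7 lower and a median of 0.56, with 3255 genes higher and 2202 lower. A mean of at least 10 CPM gave a median of 0.53. Sums per set gave 33 higher, 3 lower and a median of 0.63, with 2206 genes higher and 1376 lower in all. Leaving out control set 1 gave 27 higher, 2 lower and a median of 0.65, with 1195 genes higher and 1072 lower. Of the 36 rises, 10 were lost there. Leaving out distal set 1 gave 31 higher and 7 lower (2421 and 1649 genes). Leaving out distal set 2 gave 32 higher and 7 lower (2102 and 2410 genes). With only libraries over 4000000 counts, 18 were higher and 1 lower, with 854 and 389 genes. Removal of the trend left 1217 genes higher and 1005 lower. With the trend removed and sums per set, 2 members were higher and 0 lower, with 124 and 189 genes; fewer samples enter those fits. By DESeq2, 36 members were higher and 12 lower, with 2903 genes higher and 3248 lower. The cause of these shifts was not tested.

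Replicate numbers did not pair the regions: deviations of same-numbered libraries correlated at -0.02 to 0.11, and 1 of 6 matched its own number best. A replicate block gave 30 higher and 10 lower (2586 and 2856 genes). With the trend removed as well it gave 19 higher and 8 lower (985 and 929 genes) with a median of 0.21.

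Signs turned for some single members. With the trend removed, Mrps30 was at 0.0815, Mrpl43 at -0.79, Mrps15 at -0.78 and Mrps24 at -0.18. With sums per set as well, Mrpl1 was at 0.0038, Mrps30 at 0.48, Mrpl35 at 0.0794, Mrpl38 at -0.0479 and Mrps24 at -0.0042. With the replicate block and the trend removed, Mrpl1 was at 0.0241, Mrpl43 at -0.90, Mrps15 at -0.91 and Mrps24 at -0.31. Between sets of a region 0 members were called as counted, with DESeq2 size factors, without the filter on low counts, with the trend removed and with any 1 library of that region left out. Depth limits the low members most, such as Mrpl23 with 501 counts and Mrps36 with 511 counts over all libraries.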

Other observations

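The table also holds 5 symbols of processed copies of members, which were not tested for lack of counts. Their totals over the 14 libraries were 99 for Mrpl48-ps, 79 for Mrpl23-ps1, 20 for Mrps36-ps1, 2 for Mrps36-ps2 and 0 for Mrps36-ps3. Among the members themselves, levels in distal libraries were most even for Mrps27, with a coefficient of variation of 5.40%, and Mrps6, with 7.11%, against 22.3% and 29.9% in control libraries. These are the lowest of 77 values, each from 6 libraries, so they are picked extremes. The part of counting error in them was not tested.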
